A study of Homo sapiens with 9 samples.

Results

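Selenoproteins contain selenocysteine, an amino acid that is encoded by a UGA codon which elsewhere ends translation. The 32 genes described here were 7 glutathione peroxidases and thioredoxin reductases (GPX and TXNRD enzymes), 17 other selenoproteins, and 8 genes for the synthesis, insertion and supply of selenocysteine. They were chosen by name and found by their gene symbols among the 58735 genes of the deposited tables. Of the 32 genes, 28 had enough reads to be tested. GPX2, DIO1, DIO3 and SELENOV were not tested.

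RNA of MDA-MB-231 cells, an established human line of triple-negative breast cancer, was sequenced in 9 libraries. Cells treated with DMSO (vehicle), cells that survived increased amounts of erastin (erastin-R) and cells that survived increased amounts of RSL3 (RSL3-R) gave 3 libraries each. Erastin blocks the cystine importer system xc-, and RSL3 binds and inactivates GPX4. Only 1 cell line was sequenced, the survivors were not compared with cells treated briefly, and no source used here says whether the 3 libraries of a group came from separate cultures, so p-values measure the spread between these libraries, which may be technical.

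Selenocysteine is made on its own tRNA: SARS1 loads serine, PSTK phosphorylates it, and SEPSECS converts it with selenophosphate that SEPHS2 makes. At the ribosome, the elongation factor EEFSEC brings this tRNA to the UGA codon, and SECISBP2 binds the stem-loop of the message, the SECIS element, that marks the codon for decoding. GPX4 reduces lipid hydroperoxides in membranes with glutathione and is the enzyme whose loss leads to ferroptosis, while the thioredoxin reductases keep thioredoxin reduced with NADPH.

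Total counts ran from 15405102 to 17273464 per library. Erastin-R replicate 1 stood apart from the other 2 erastin-R libraries. Its correlation of log2 CPM with them across genes went down to 0.986, against 0.992 for the closest pair of one group. The squared difference over counting error, averaged over genes, was 23.9 and 23.3 between it and them, and 2.47 between those 2. Mitochondrial reads were 7.95% of its counts, 5.55% and 5.84% in the other 2, and 7.97% to 8.93% in vehicle. Where leaving it out changed the call of a member this is said beside the member. Levels are given as CPM, counts scaled to the library size with TMM factors, which can be compared between libraries for 1 gene, and FPKM, which also divides by exon length, where genes are compared with each other. VIM and CD44, which mark this mesenchymal line, were high in every group (means of 1347 to 1475 CPM and 234 to 314 CPM), and the receptors ESR1 and PGR had means under 0.6 CPM. ERBB2, which is not amplified in this line, was read at 62.0 to 93.3 CPM. Of the markers of other cells, the leukocyte gene PTPRC had means of 0.424 CPM in vehicle, 0.343 CPM in erastin-R and 1.37 CPM in RSL3-R, the epithelial gene CDH1 1.14, 0.751 and 3.44 CPM, EPCAM 2.15, 1.32 and 1.65 CPM, and the endothelial gene PECAM1 9.99 CPM in vehicle, 1.79 CPM in erastin-R and 12.8 CPM in RSL3-R cells. PTPRC had 11, 4 and 6 counts in vehicle and 19, 24 and 24 in RSL3-R. It was tested mainly through its RSL3-R libraries, where it was highest. Its higher call there (log2 1.67, adjusted p = 0.00818, edgeR) was favoured by the filter and is not read as a rise. CDH1 rose by log2 1.58 in RSL3-R cells (adjusted p = 0.0013, edgeR). PECAM1 fell in erastin-R cells (log2 -2.47 ± 0.18, adjusted p = 8.28e-08) and rose in RSL3-R cells (log2 0.36 ± 0.14, adjusted p = 0.0469). Their part in the results was not tested.

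The in-frame TGA codon that is read as selenocysteine was found in the annotated transcript of all 24 selenoprotein genes (GENCODE release 29, GRCh38). The windows below show the selenocysteine codon in capitals with 12 coding bases before it and, after it, 15 bases or the bases up to the stop codon. They are shown for some of the selenoproteins whose levels moved. TXNRD2, SEPHS2, SELENOI, SELENOS, SELENON and DIO2 were also called in a comparison with vehicle and are not shown. In the windows the thioredoxin reductases and SELENOO, unlike the peroxidases, carry the residue within a few codons of the end.
GPX4: gtggcctcccagTGAggcaagaccgaagta
GPX3: gtggccagctacTGAggcctgacgggccag
TXNRD1: caggctggctgcTGAggttaa
TXNRD3: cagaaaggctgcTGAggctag
MSRB1: cagtcccgattcTGAatattcagcagctcg
SELENOW: tattgtggcgctTGAggctacaagtccaag
SELENOM: acctgcgggggaTGAcagctgaaccgccta
SELENOO: ctgtgcgtgacaTGAtcttcgtaa
The codon of GPX4 lies at chr19:1105403-1105405 on the plus strand, in exon 3 of 7, 342 bases before the last exon junction, and that of TXNRD1 at chr12:104348413-104348415 on the plus strand, in the last of 15 exons. That of MSRB1 lies at chr16:1940812-1940814 on the minus strand, in exon 3 of 4 and 34 bases before the last junction. Codons in these places differ in whether an unread UGA can mark the message for nonsense-mediated decay, which in textbook accounts needs a stop more than about 55 bases before the last junction.

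In vehicle cells the members spanned a wide range of levels. GPX1, the most abundant cytosolic glutathione peroxidase, had the highest level per exon length with a mean of 191 FPKM, followed by GPX4 with 94.8 FPKM, TXNRD1 with 77.5 FPKM and SELENOF, a selenoprotein of the endoplasmic reticulum, with 74.0 FPKM. TXNRD1 and SELENOF overlapped in their spread, and GPX1 lay far above all others. SEPHS1, the cysteine-type paralog of the selenophosphate synthetase, was the most abundant member of the machinery with 45.5 FPKM, and SEPSECS (1.73 FPKM), PSTK (1.13 FPKM) and SCLY (0.279 FPKM) were the lowest. In erastin-R cells TXNRD1, at 216 FPKM, stood above GPX1 at 169 FPKM, and in RSL3-R cells GPX1 (170.3 FPKM) and GPX4 (124 FPKM) remained the highest. DIO3 and SELENOV had 0 counts in all 9 libraries, which allows a level of up to 0.174 to 0.195 CPM per library, counting error only. GPX2 had 0 to 6 counts and DIO1 2 to 12 counts in a library. The exon length used for FPKM is the union of all exons of a gene, so a gene with long alternative exons, such as SELENOW with 5261 bases, has a low FPKM for its reads.

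**Figure D1:**
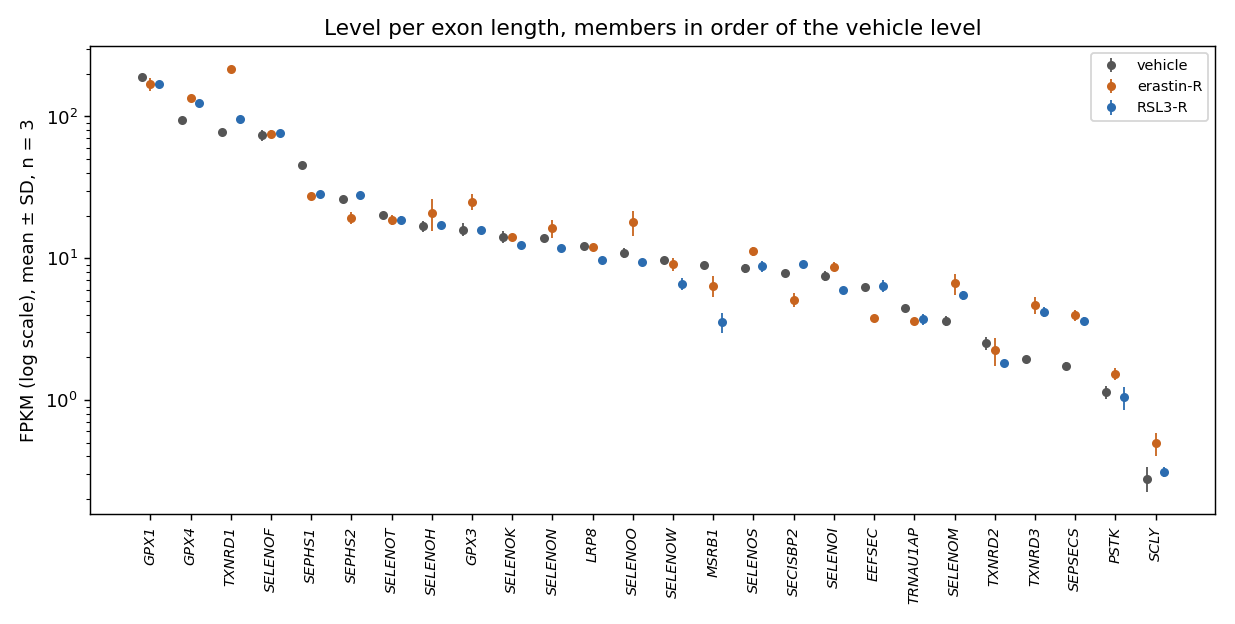
Mean FPKM (log axis) with SD of the 3 libraries for the 26 members above 0.2 FPKM in vehicle, ordered by the vehicle level; grey is vehicle, orange erastin-R and blue RSL3-R. TXNRD1 moves from 77.5 FPKM in vehicle to 216 FPKM in erastin-R, while MSRB1 falls from 8.99 to 3.55 FPKM in RSL3-R.

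In erastin-R cells 11 of the 28 members tested rose against vehicle and 7 fell at an adjusted p under 0.05, and 10 did not pass. That is 39.3% and 25.0% of the members, beside 27.1% of all 16188 genes that were higher and 26.8% that were lower. With a change of at least 2-fold as well, TXNRD1, TXNRD3 and SEPSECS rose and DIO2 was called lower, beside 6.7% and 6.66% of all genes. DIO2 had few reads and was tested mainly through its vehicle libraries. The median log2 change of the members was 0.02, beside -0.00 over all genes tested.

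In RSL3-R cells 6 members rose and 8 fell against vehicle, which is 21.4% and 28.6%, beside 23.8% and 24.9% of all genes. TXNRD3 and SEPSECS rose and MSRB1 fell by at least 2-fold, beside 6.02% and 4.08% of all genes. The median was -0.12, beside 0.01 over all genes. Without vehicle replicate 1, 5 members fell in place of 8, and without RSL3-R replicate 1, 5 members passed 2-fold in place of 3, with DIO2 and SELENOP added. DIO2 and SELENOP had few reads and were tested mainly through their vehicle libraries. The library left out was the RSL3-R library where they were highest (10 and 18 counts), so these added calls are not read as falls. Both comparisons use the same 3 vehicle libraries.

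Set directly against erastin-R cells, RSL3-R cells had 3 members higher and 11 lower, which is 10.7% and 39.3%, beside 22.3% and 26.9% of all genes. No member was higher by 2-fold, beside 6.86% of all genes, and TXNRD1 alone was lower by 2-fold, beside 3.48%. The median was -0.24, beside -0.02 over all genes. Without erastin-R replicate 1, 16 members were lower in place of 11, and 2 of them by 2-fold in place of 1.

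**Figure D2:**
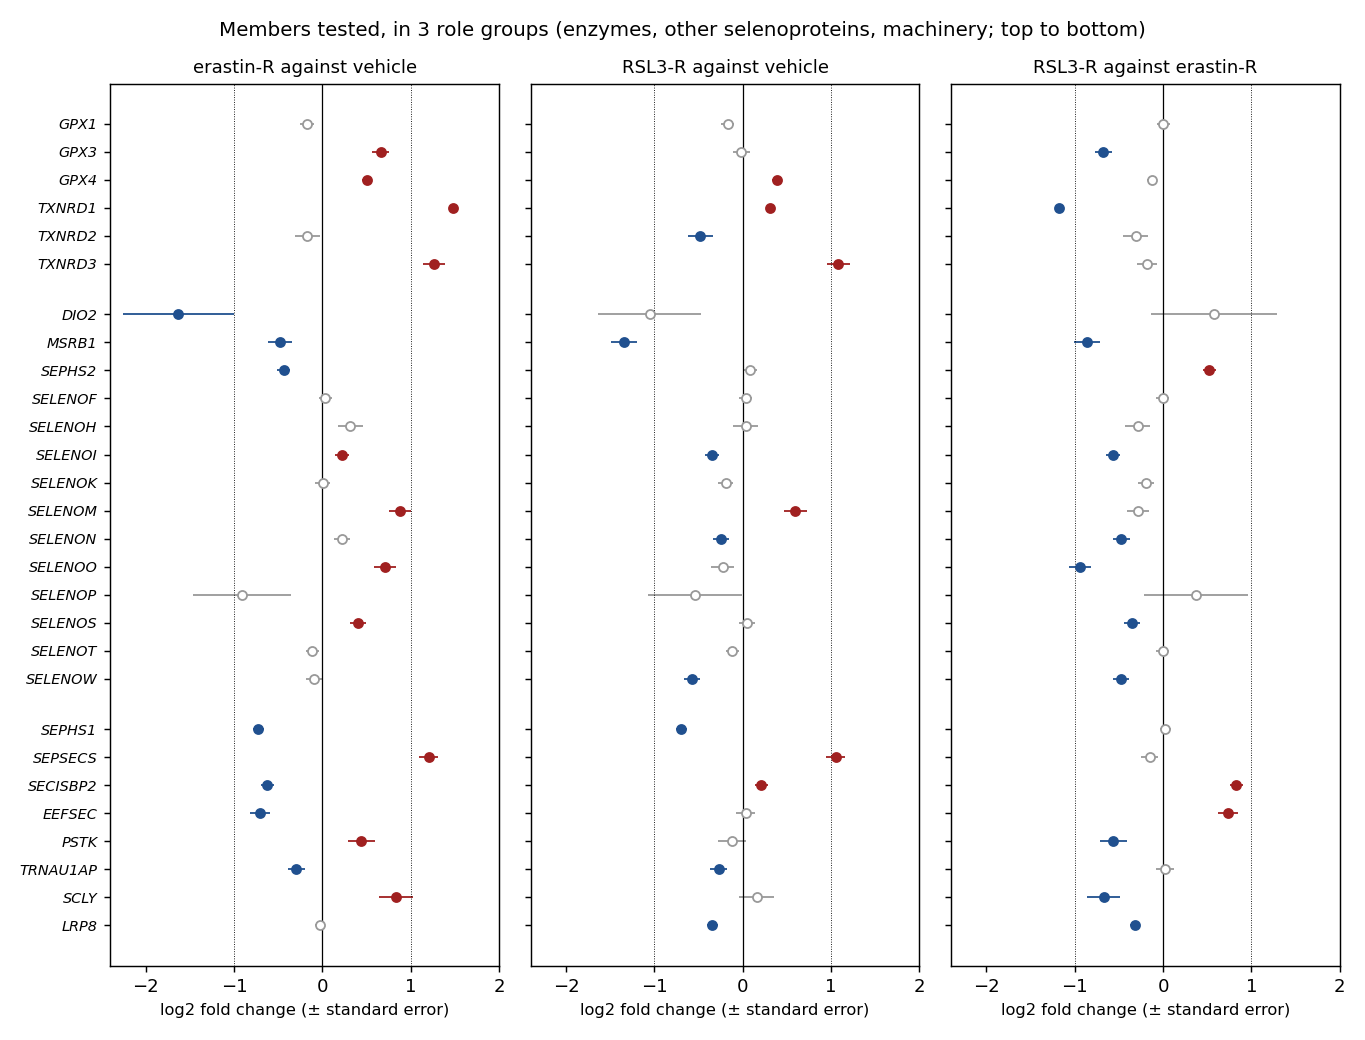
Log2 fold change with its standard error (x axis) of the 28 members tested, in the 3 comparisons; filled red and blue points passed an adjusted p of 0.05 as higher and lower, open grey points did not, and dotted lines mark 2-fold. The enzymes hold 4 higher and 0 lower genes in erastin-R against vehicle, and the machinery holds 3 higher and 4 lower.

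Among the GPX and TXNRD enzymes, 4 of the 6 tested rose in erastin-R cells (GPX3, GPX4, TXNRD1 and TXNRD3) and none fell. In RSL3-R cells GPX4, TXNRD1 and TXNRD3 rose and TXNRD2 fell. In the direct comparison GPX3 and TXNRD1 were lower in RSL3-R cells and none was higher. These are 66.7% and 0% of the 6 in erastin-R cells, beside 27.1% and 26.8% of all genes, 50% and 16.7% in RSL3-R cells, beside 23.8% and 24.9%, and 0% and 33.3% in the direct comparison, beside 22.3% and 26.9%.

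GPX4 (ENSG00000167468, chr19:1103926-1106791, GRCh38), the target of RSL3, was read at 192, 193 and 195 CPM in the vehicle libraries, at 265, 276 and 285 CPM in erastin-R and at 242, 249.6 and 265 CPM in RSL3-R. Every survivor library lay above every vehicle library, and both survivor groups overlapped each other. In bulk RNA, more or fewer cells with a message and more or less of it per cell cannot be told apart. GPX4 rose 1.42-fold in erastin-R cells (log2 0.51 ± 0.06, adjusted p = 4.74e-06, edgeR) and 1.31-fold in RSL3-R cells (log2 0.38 ± 0.06, adjusted p = 7.37e-05). The difference between RSL3-R and erastin-R was -0.13 ± 0.06 on the log2 scale (adjusted p = 0.0779, and 0.00519 without erastin-R replicate 1).

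TXNRD1 (ENSG00000198431, chr12:104215779-104350305), the cytosolic thioredoxin reductase, had 536, 527 and 515 CPM in vehicle, 1524, 1466 and 1422 CPM in erastin-R and 665, 661 and 632 CPM in RSL3-R. The 3 groups did not overlap, with erastin-R far above the other two. It rose 2.8-fold in erastin-R cells (log2 1.48 ± 0.05, adjusted p = 2.99e-10) and 1.24-fold in RSL3-R cells (log2 0.31 ± 0.05, adjusted p = 2.31e-04). The direct difference was -1.17 ± 0.05 (adjusted p = 2.5e-09).

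TXNRD3 (ENSG00000197763, chr3:126571779-126655155), the thioredoxin and glutathione reductase best known from testis, had 7.33, 7.41 and 7.90 CPM in vehicle, 15.4, 19.0 and 20.1 CPM in erastin-R and 17.5, 15.5 and 14.96 CPM in RSL3-R. Both survivor groups lay above vehicle and overlapped each other. It rose 2.41-fold in erastin-R cells (log2 1.27 ± 0.13, adjusted p = 1.65e-06) and 2.12-fold in RSL3-R cells (log2 1.08 ± 0.13, adjusted p = 8.86e-06). The direct difference for TXNRD3 was -0.18 ± 0.12 (adjusted p = 0.214, and 0.0272 without erastin-R replicate 1).

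TXNRD2 (ENSG00000184470), the mitochondrial reductase, had 23.97, 20.5 and 19.5 CPM in vehicle, 14.3, 21.3 and 21.4 CPM in erastin-R and 15.2, 15.2 and 15.6 CPM in RSL3-R. The RSL3-R libraries were all below vehicle, and of the erastin-R libraries replicate 1 was low. TXNRD2 fell in RSL3-R cells (log2 -0.48 ± 0.14, adjusted p = 0.0124), a call lost without vehicle replicate 1 or RSL3-R replicate 1, and its change in erastin-R cells was -0.17 ± 0.14 (adjusted p = 0.322). The direct difference was -0.31 ± 0.14 (adjusted p = 0.0881, and 3.48e-04 without erastin-R replicate 1).

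GPX3 (ENSG00000211445), the secreted plasma glutathione peroxidase, had 57.1, 48.9 and 46.8 CPM in vehicle, 68.8, 87.1 and 85.4 CPM in erastin-R and 51.8, 48.3 and 51.0 CPM in RSL3-R. Only the erastin-R libraries stood above the others. It rose in erastin-R cells (log2 0.66 ± 0.10, adjusted p = 6.27e-05) and was lower in RSL3-R than in erastin-R cells (log2 -0.68 ± 0.10, adjusted p = 6.73e-05). Its difference between RSL3-R and vehicle was -0.02 ± 0.10 (adjusted p = 0.904), and this sign changed with the scaling.

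GPX1 (ENSG00000233276) was read at 260.2 to 286 CPM in vehicle, 219.9 to 270.1 CPM in erastin-R and 231 to 254 CPM in RSL3-R. Its log2 changes were -0.17 ± 0.07 in each comparison with vehicle (adjusted p = 0.0651 for erastin-R and 0.0737 for RSL3-R), and they passed the threshold in 5 and 4 of 15 alternative settings, the latter including the one without erastin-R replicate 1. The direct difference was 0.00 ± 0.07 (adjusted p = 0.986). GPX1 shares 14.7% of its 50-base words with other genes, chiefly the pseudogenes GPX1P1 and GPX1P2. Reads from those stretches may not be told apart, and how many of its counts they affect was not measured.

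**Figure D3:**
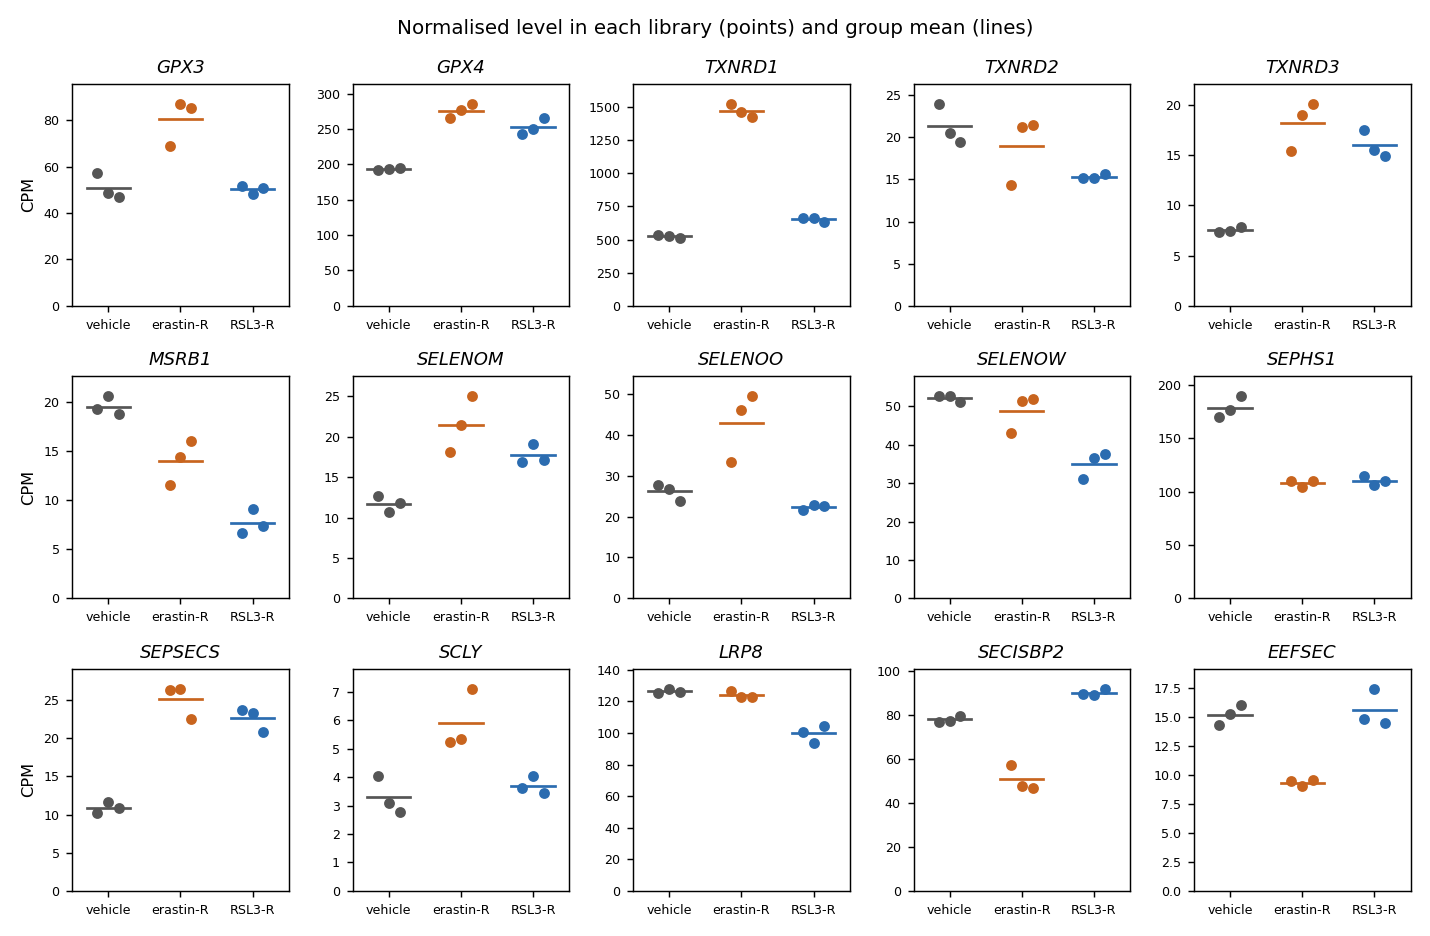
CPM (y axis, from 0, own scale for each gene) of 15 members in every library (points) and the group mean (lines), for vehicle, erastin-R and RSL3-R. TXNRD1 separates all 3 groups, SEPSECS and TXNRD3 separate both survivor groups from vehicle, and SECISBP2 and EEFSEC are low in erastin-R alone.

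The reads on the 24 selenoprotein genes were shared out differently in the 3 groups. Their summed level was 1733 ± 19.8 CPM in vehicle, 2805 ± 70.5 CPM in erastin-R and 1839 ± 6.56 CPM in RSL3-R (SD, n = 3). TXNRD1 took 30.3% ± 0.276 of it in vehicle, 52.5% ± 3.08 in erastin-R and 35.5% ± 1.09 in RSL3-R. GPX4 took 11.2% ± 0.217, 9.82% ± 0.202 and 13.7% ± 0.601, and GPX1 15.9% ± 0.676, 8.73% ± 0.732 and 13.3% ± 0.619. GPX4 held its largest share in the RSL3-R libraries (13.2% to 14.4%), where its mean level was 252 CPM against 276 CPM in erastin-R. Without TXNRD1 the sum was 1199 to 1218 CPM in vehicle, 1200.1 to 1417 CPM in erastin-R, with replicate 1 the lowest, and 1166 to 1212 CPM in RSL3-R. These sums are descriptions of the libraries, with no test.

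**Figure D4:**
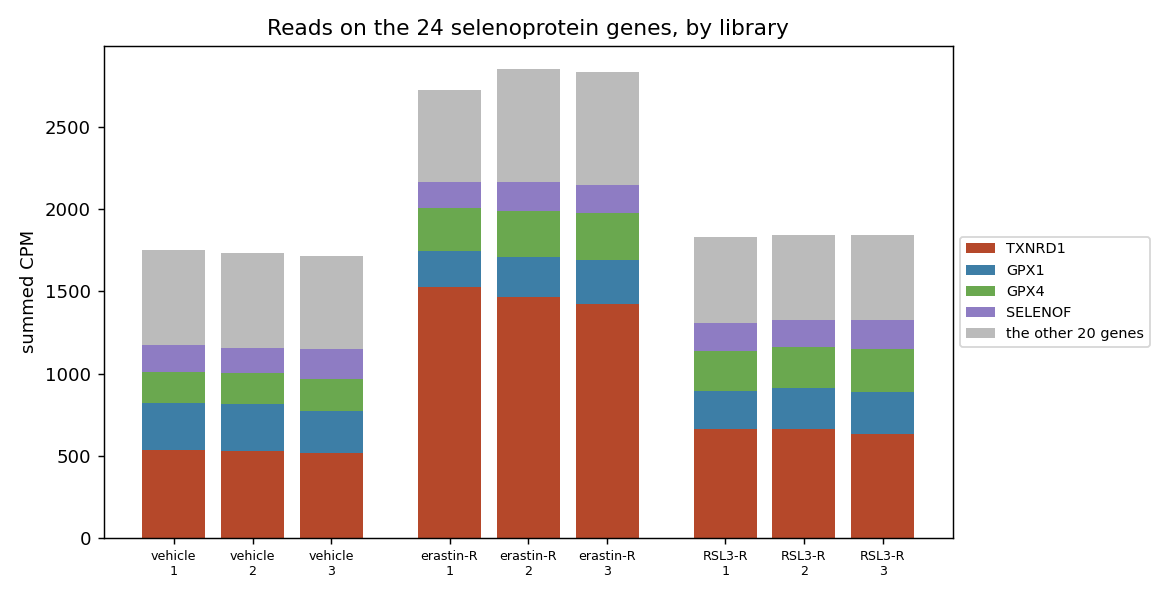
Summed CPM of the 24 selenoprotein genes in each library (bars, from 0), split into TXNRD1, GPX1, GPX4, SELENOF and the other 20 genes. The erastin-R bars reach 2724 to 2853 CPM, and TXNRD1 makes up 50.1% to 55.9% of them.

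Of the 14 other selenoproteins tested, 4 rose and 3 fell in erastin-R cells, 1 rose and 4 fell in RSL3-R cells, and 1 was higher and 6 lower in RSL3-R than in erastin-R cells. SELENOI, SELENOM, SELENOO and SELENOS rose in erastin-R cells, and MSRB1 and SEPHS2 fell. DIO2, the third gene called lower, had few reads and was tested mainly through its vehicle libraries. Its call is counted in the shares but is not read as a fall. In RSL3-R cells SELENOM rose, and MSRB1, SELENOI, SELENON and SELENOW fell. The shares of the 14 were 28.6% higher and 21.4% lower in erastin-R cells (27.1% and 26.8% of all genes), 7.14% and 28.6% in RSL3-R cells (23.8% and 24.9%), and 7.14% and 42.9% between them (22.3% and 26.9%), so those in erastin-R cells were near the shares of all genes.

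MSRB1 (ENSG00000198736, chr16:1938210-1943326), which reduces oxidised methionine in the cytosol and nucleus, had 19.3, 20.6 and 18.8 CPM in vehicle, 11.6, 14.4 and 16.1 CPM in erastin-R and 6.64, 9.07 and 7.42 CPM in RSL3-R. The groups followed each other downwards with no overlap. It fell to 0.716 of the vehicle level in erastin-R cells (log2 -0.48 ± 0.13, adjusted p = 0.00796) and to 0.394 in RSL3-R cells (log2 -1.34 ± 0.14, adjusted p = 3.74e-06). RSL3-R was lower than erastin-R by a further log2 -0.86 ± 0.15 (adjusted p = 2.52e-04).

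SELENOW (ENSG00000178980), a small thioredoxin-fold selenoprotein, had 52.6, 52.6 and 51.0 CPM in vehicle, 43.1, 51.3 and 51.9 CPM in erastin-R and 31.0, 36.5 and 37.6 CPM in RSL3-R. The RSL3-R libraries lay below all others. It fell in RSL3-R cells (log2 -0.57 ± 0.09, adjusted p = 1.51e-04) and was lower there than in erastin-R cells (log2 -0.48 ± 0.09, adjusted p = 6.87e-04). Its change in erastin-R cells was -0.09 ± 0.09 (adjusted p = 0.396).

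MSRB1 and SELENOW belong, with GPX1 and SELENOH, to the selenoproteins whose messages are known to fall first when selenium is short. Of these 4, 0 rose and 1 fell in erastin-R cells and 0 rose and 2 fell in RSL3-R cells, with medians of -0.13 and -0.37, beside -0.00 and 0.01 over all genes. The shares that fell, 25.0% and 50% of 4 genes, stand beside 26.8% and 24.9% of all genes. SELENOH, a nucleolar selenoprotein, read 35.0 to 41.8 CPM in vehicle and 39.3 to 40.8 CPM in RSL3-R (log2 0.03 ± 0.14, adjusted p = 0.872) and did not pass. Its values of 0.32 ± 0.14 in erastin-R cells (adjusted p = 0.0726) and -0.29 ± 0.14 in the direct comparison (adjusted p = 0.11) passed without erastin-R replicate 1. Selenium itself was not measured.

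SELENOM (ENSG00000198832), a thioredoxin-like protein of the endoplasmic reticulum, had 12.6, 10.6 and 11.8 CPM in vehicle, 18.0, 21.4 and 25.0 CPM in erastin-R and 16.8, 19.1 and 17.1 CPM in RSL3-R. Both survivor groups were above vehicle. It rose 1.84-fold in erastin-R cells (log2 0.88 ± 0.13, adjusted p = 5.39e-05) and 1.51-fold in RSL3-R cells (log2 0.60 ± 0.13, adjusted p = 0.00158), and the direct difference of -0.28 ± 0.12 did not pass (adjusted p = 0.0725, and 0.00284 without erastin-R replicate 1).

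SELENOO (ENSG00000073169), a mitochondrial pseudokinase that attaches AMP to proteins, had 27.7, 26.8 and 23.9 CPM in vehicle, 33.2, 45.9 and 49.4 CPM in erastin-R and 21.5, 22.9 and 22.6 CPM in RSL3-R. The erastin-R libraries were above vehicle and the RSL3-R libraries below it. It rose 1.64-fold in erastin-R cells (log2 0.71 ± 0.12, adjusted p = 2.55e-04). In RSL3-R cells its value of -0.23 ± 0.13 did not pass (adjusted p = 0.159, and 0.0156 without erastin-R replicate 1), and the direct difference was -0.94 ± 0.13 (adjusted p = 3.53e-05). An antisense gene, AL022328.2, with at most 47 counts in a library, lies opposite 9.69% of its exon bases, and whether the counting used strand is not given in the sources used here.

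Of the 7 selenoproteins of the endoplasmic reticulum (DIO2, SELENOF, SELENOK, SELENOM, SELENON, SELENOS and SELENOT), 2 rose and 1 fell in erastin-R cells and 1 rose and 1 fell in RSL3-R cells. That is 28.6% and 14.3%, beside 27.1% and 26.8% of all genes, and 14.3% each way, beside 23.8% and 24.9%. The gene called lower in erastin-R cells was DIO2, whose few reads are given below and whose call is not read as a fall. SELENOS, which works in the removal of misfolded proteins, had 29.6 to 34.8 CPM in vehicle and 39.6 to 45.1 CPM in erastin-R and rose there (log2 0.40 ± 0.09, adjusted p = 0.00172). SELENON, a calcium-linked protein of that membrane, had 60.8 to 63.9 CPM in vehicle and 49.6 to 55.4 CPM in RSL3-R and fell there (log2 -0.25 ± 0.09, adjusted p = 0.0425), a call lost in 10 of 15 alternative settings. Its value of 0.22 ± 0.09 in erastin-R cells (adjusted p = 0.0545) passed without erastin-R replicate 1. SELENOF and SELENOT, both thioredoxin-like proteins of the same compartment, had log2 changes from -0.12 to 0.04 against vehicle. SELENOK, a partner of palmitoylation in that membrane, had log2 changes of 0.00 and -0.19, of which the second (RSL3-R, adjusted p = 0.0825) passed without erastin-R replicate 1.

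DIO2, the deiodinase that activates thyroid hormone, had 12, 9 and 11 counts in the vehicle libraries (0.715, 0.556 and 0.679 CPM), 2, 6 and 2 in erastin-R (0.119, 0.382 and 0.122 CPM) and 10, 3 and 2 in RSL3-R (0.645, 0.186 and 0.117 CPM). The erastin-R libraries lay below vehicle and the RSL3-R libraries overlapped both groups. It was lower in erastin-R cells (log2 -1.63 ± 0.63, adjusted p = 0.0408). That call was lost in 9 of 13 alternative settings. Among them were the one that kept every gene with a count and the one without erastin-R replicate 1 (adjusted p = 0.0966 for the latter). DIO2 had enough reads to be tested mainly through the vehicle libraries, where it was highest. The filter thus favoured a lower call, which is not read as a fall here. Its value in RSL3-R cells (log2 -1.05 ± 0.58, adjusted p = 0.153) and the direct difference (0.58 ± 0.71, adjusted p = 0.526) did not pass. SELENOP, the secreted carrier of selenium with 10 selenocysteine codons, had 13 to 14 counts in vehicle, 4 to 10 in erastin-R and 4 to 18 in RSL3-R, and its log2 changes of -0.91 ± 0.55 and -0.54 ± 0.53 did not pass. Both were near the limit of what these depths can show.

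SELENOI, which makes phosphatidylethanolamine, moved in opposite directions in the survivors. It had 61.4, 63.2 and 70.5 CPM in vehicle, 69.7, 78.5 and 79.3 CPM in erastin-R and 54.99, 49.7 and 48.8 CPM in RSL3-R. The erastin-R libraries overlapped vehicle at their lower end and the RSL3-R libraries were all below it. SELENOI rose in erastin-R cells (log2 0.22 ± 0.08, adjusted p = 0.0289, lost in 5 of 15 settings), fell in RSL3-R cells (log2 -0.35 ± 0.08, adjusted p = 0.00271), and the difference between them was -0.57 ± 0.08 (adjusted p = 5.66e-05). The antisense gene ADGRF3 covers 5.95% of its exon bases and had at most 8 counts.

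All 8 genes of the machinery were tested, and they moved in both directions. In erastin-R cells SEPSECS, PSTK and SCLY rose and SEPHS1, SECISBP2, EEFSEC and TRNAU1AP fell, and LRP8 did not pass. In RSL3-R cells SEPSECS and SECISBP2 rose and SEPHS1, TRNAU1AP and LRP8 fell. SECISBP2 and EEFSEC were higher, and PSTK, SCLY and LRP8 lower, in RSL3-R than in erastin-R cells. The shares higher and lower were 37.5% and 50% in erastin-R cells (27.1% and 26.8% of all genes), 25.0% and 37.5% in RSL3-R cells (23.8% and 24.9%), and 25.0% and 37.5% between them (22.3% and 26.9%).

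SEPSECS (ENSG00000109618, chr4:25120014-25160442), which completes selenocysteine on its tRNA, had 10.3, 11.6 and 10.9 CPM in vehicle, 26.3, 26.5 and 22.6 CPM in erastin-R and 23.7, 23.2 and 20.9 CPM in RSL3-R. Both survivor groups lay well above vehicle and overlapped each other. It rose 2.3-fold in erastin-R cells (log2 1.20 ± 0.10, adjusted p = 4.75e-07) and 2.07-fold in RSL3-R cells (log2 1.05 ± 0.10, adjusted p = 2.02e-06), with a direct difference of -0.15 ± 0.10 (adjusted p = 0.221).

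PSTK (ENSG00000179988), the kinase one step before it, had 7.75, 6.98 and 6.29 CPM in vehicle, 8.64, 10.4 and 9.60 CPM in erastin-R and 5.29, 6.34 and 7.66 CPM in RSL3-R. Only erastin-R stood above vehicle. It rose there (log2 0.44 ± 0.15, adjusted p = 0.0242, lost in 4 of 14 settings) and did not pass in RSL3-R cells (log2 -0.12 ± 0.16, adjusted p = 0.551).

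SEPHS2 is itself a selenoprotein and supplies the selenophosphate. It had 67.7, 68.6 and 65.5 CPM in vehicle, 44.3, 53.1 and 51.7 CPM in erastin-R and 70.3, 72.6 and 71.3 CPM in RSL3-R. The erastin-R libraries were below both other groups. It fell in erastin-R cells (log2 -0.44 ± 0.07, adjusted p = 2.09e-04), while RSL3-R cells gave 0.09 ± 0.07 (adjusted p = 0.353). SEPHS1 (ENSG00000086475, chr10:13317424-13348298), its paralog without selenocysteine, which does not make selenophosphate, had 170.1, 177 and 189.6 CPM in vehicle, 110.4, 104 and 110.5 CPM in erastin-R and 115, 106 and 110.0 CPM in RSL3-R. Both survivor groups lay below vehicle and overlapped each other. SEPHS1 fell by 0.72 ± 0.06 on the log2 scale in erastin-R cells (adjusted p = 3.96e-07) and by 0.70 ± 0.06 in RSL3-R cells (adjusted p = 6.32e-07), with a direct difference of 0.03 ± 0.06 (adjusted p = 0.753). Pseudogenes share 7.81% of its 50-base words.

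SECISBP2 (ENSG00000187742), which binds the SECIS element, had 76.7, 77.3 and 79.5 CPM in vehicle, 57.3, 47.7 and 46.8 CPM in erastin-R and 89.4, 89.0 and 91.7 CPM in RSL3-R. The 3 groups did not overlap, with erastin-R below vehicle and RSL3-R above it. It fell in erastin-R cells (log2 -0.62 ± 0.08, adjusted p = 1.39e-05). The rise in RSL3-R cells was small (log2 0.21 ± 0.08, adjusted p = 0.0332) and was lost in 7 of 15 settings, whereas the direct difference was 0.83 ± 0.08 (adjusted p = 1.49e-06).

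EEFSEC (ENSG00000132394), the elongation factor for selenocysteine, had 14.4, 15.3 and 16.0 CPM in vehicle, 9.47, 9.03 and 9.54 CPM in erastin-R and 14.9, 17.5 and 14.5 CPM in RSL3-R. It was low in erastin-R alone, as SECISBP2 and SEPHS2 were. EEFSEC fell there (log2 -0.70 ± 0.11, adjusted p = 1.18e-04) and differed between the survivors by 0.74 ± 0.11 (adjusted p = 1.0e-04). RUVBL1, a gene with up to 1541 counts in a library, lies opposite 15.3% of its exon bases, and without the strand of counting reads of both genes cannot be told apart there.

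TRNAU1AP, a protein associated with the selenocysteine tRNA, had 18.9 to 20.2 CPM in vehicle, 15.7 to 16.2 CPM in erastin-R and 14.5 to 17.2 CPM in RSL3-R. It fell in both (log2 -0.29 ± 0.10, adjusted p = 0.0200, and -0.27 ± 0.10, adjusted p = 0.0334), calls lost in 2 and 7 of 14 settings.

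SCLY, the lyase that releases selenium from selenocysteine, had 4.05, 3.09 and 2.78 CPM in vehicle, 5.24, 5.34 and 7.11 CPM in erastin-R and 3.61, 4.04 and 3.45 CPM in RSL3-R. Only erastin-R lay above vehicle. SCLY rose there 1.78-fold (log2 0.83 ± 0.19, adjusted p = 0.00211) and was lower in RSL3-R than in erastin-R cells (log2 -0.67 ± 0.19, adjusted p = 0.00896). Its change in RSL3-R cells against vehicle was 0.16 ± 0.20 (adjusted p = 0.537). The read-through gene UBE2F-SCLY, with at most 2 counts, shares 19.7% of its exon bases on the same strand.

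LRP8, a receptor that takes up SELENOP, had 126, 128 and 126 CPM in vehicle, 127, 123 and 123 CPM in erastin-R and 101, 94.0 and 104 CPM in RSL3-R. Only RSL3-R lay below the others. LRP8 fell in RSL3-R cells (log2 -0.34 ± 0.06, adjusted p = 2.6e-04) and had a change of -0.03 ± 0.06 in erastin-R cells (adjusted p = 0.729). It was lower in RSL3-R than in erastin-R cells (log2 -0.32 ± 0.06, adjusted p = 5.18e-04).

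Of 16 further genes of selenocysteine metabolism, 14 were tested, of which 2 rose and 4 fell in erastin-R cells and 2 rose and 6 fell in RSL3-R cells. That is 14.3% and 28.6%, beside 27.1% and 26.8% of all genes, and 14.3% and 42.9%, beside 23.8% and 24.9%. SARS (the older symbol of SARS1), which loads serine on the selenocysteine tRNA as well as on serine tRNAs, had 151 to 158 CPM in vehicle, 258 to 276 CPM in erastin-R and 502 to 525 CPM in RSL3-R. The groups did not overlap, and SARS rose 1.7-fold (log2 0.76 ± 0.06, adjusted p = 8.71e-08) and 3.28-fold (log2 1.71 ± 0.06, adjusted p = 7.85e-11). ALKBH8, which modifies the wobble base of the tRNA, fell in both (log2 -0.74 ± 0.14, adjusted p = 4.95e-04, and -0.39 ± 0.14, adjusted p = 0.0277). EIF4A3, known to hinder decoding of some selenoprotein messages, had 131 to 134 CPM in vehicle and 90.4 to 91.4 CPM in RSL3-R and fell there (log2 -0.54 ± 0.07, adjusted p = 2.27e-05). KLHDC1 and KLHDC2, which target proteins cut short at the UGA codon for degradation, differed in where they rose: KLHDC1 in RSL3-R cells (log2 1.75 ± 0.26, adjusted p = 9.67e-05) and KLHDC2 in erastin-R cells (log2 0.86 ± 0.12, adjusted p = 3.32e-05). The direct differences were 1.06 ± 0.25 for KLHDC1 and -0.65 ± 0.12 for KLHDC2 (adjusted p = 0.00288 and 3.89e-04). KLHDC1 was low and varied within vehicle, with 29, 19 and 50 counts there and 93, 115 and 119 in RSL3-R. KLHDC2 had 927 to 1011 counts in vehicle. Of the other 2 adaptors of this kind in the list, KLHDC3 fell in RSL3-R cells (log2 -0.43 ± 0.08, adjusted p = 5.8e-04) and had 0.10 ± 0.08 in erastin-R cells (adjusted p = 0.306). APPBP2 did not pass in either (log2 0.04 ± 0.08 and -0.16 ± 0.08, adjusted p = 0.682 and 0.105).

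Of 9 relatives that use cysteine or work with the enzymes, 8 were tested, of which 25.0% rose and 0% fell in erastin-R cells (27.1% and 26.8% of all genes) and 12.5% rose and 25.0% fell in RSL3-R cells (23.8% and 24.9%). TXN and GSR rose in erastin-R cells. In RSL3-R cells MSRA, the methionine sulfoxide reductase for the other stereoisomer, rose (log2 0.32 ± 0.12, adjusted p = 0.0459, edgeR), and TXN and the mitochondrial TXN2 fell. TXN, the cytosolic thioredoxin that TXNRD1 reduces, had 246 to 264 CPM in vehicle, 281 to 308 CPM in erastin-R and 178 to 189 CPM in RSL3-R. It rose by log2 0.21 ± 0.06 in erastin-R cells (adjusted p = 0.00732) and fell by 0.47 ± 0.06 in RSL3-R cells (adjusted p = 1.39e-05), where TXNRD1 rose. GSR, which reduces glutathione for the peroxidases, rose in erastin-R cells (log2 0.41 ± 0.07, adjusted p = 2.03e-04) and had a value of -0.16 ± 0.07 in RSL3-R cells (adjusted p = 0.0728). GPX8, a cysteine-type peroxidase, had log2 changes of -0.02 ± 0.10 and 0.18 ± 0.10, neither of which passed.

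By place of the codon, 14 of the 24 selenoproteins had their first annotated selenocysteine codon more than 55 bases before the last exon junction, 3 within 55 bases of it, 5 in the last exon, and 2 had a single exon. In erastin-R cells 3 of the 11 tested genes of the first kind rose and 0 fell, and of the other 9 tested 5 rose and 3 fell. In RSL3-R cells the counts were 2 and 3 among the 11, and 2 and 2 among the 9. All these stand beside 27.1% and 26.8% of all genes in erastin-R and 23.8% and 24.9% in RSL3-R cells, and 3 of 11 is close to the first of these. The 4 selenoproteins that passed 2-fold against vehicle (TXNRD1, TXNRD3, MSRB1 and DIO2) belong to the second kind. That kind pools codons near the last junction, codons in the last exon and genes of a single exon. Over all genes, 6.7% were higher and 6.66% lower by 2-fold in erastin-R cells, and 6.02% and 4.08% in RSL3-R cells. Of the 4 selenoproteins, DIO2 had few reads and was tested mainly through its vehicle libraries, so its call is not read as a fall. This is a description of few genes and no test was made.

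The core of the antioxidant response element, TGACNNNGC, was searched on both strands of 300 bases around the annotated starts (250 before and 50 after, RefSeq, GRCh38.p14). A promoter was held for 29 of the 32 members. None was held for SELENOM, SELENOO and SEPSECS, which rose in erastin-R cells and were not searched. The core was in 7 of these 29 members and in 8 of their 39 promoters, beside 13.35% of all 35116 promoters. Sites of TXNRD1 and of the 2 machinery members with a match are shown because their messages moved, with the core in capitals and 10 bases on either side, as read on the gene's strand.
TXNRD1, upstream start, 99 bases before it: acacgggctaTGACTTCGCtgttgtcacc
TXNRD1, upstream start, across it: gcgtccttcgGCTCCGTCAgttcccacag
TXNRD1, downstream start, 102 bases before it: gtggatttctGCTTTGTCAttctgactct
SCLY, 134 bases before the start: acccgtcaccTGACCCAGCgcagcctcgc
SECISBP2, 164 bases before the start: ggccgggcggTGACGGGGCtggtccagcg
SECISBP2, across the start: cgtctgtggtGCGATGTCAcccagcgcag
The first TXNRD1 site is chr12:104215680-104215688, and the site at the downstream start chr12:104286930-104286938. Both SECISBP2 sites belong to the window of its downstream start (chr9:89318601-89318900). They lie inside the gene, which GENCODE starts at 89318506. The window of the upstream SECISBP2 start (chr9:89318250-89318549) held no match. In erastin-R cells TXNRD1 and SCLY rose and SECISBP2 fell. SELENON, SELENOK, SELENOP and GPX2 also held the core, and none of these 4 was called in erastin-R cells, GPX2 not being tested. GPX3, GPX4, TXNRD3, SELENOI, SELENOS and PSTK, which rose in erastin-R cells, had no match in the windows held. The core of the C/EBP-ATF element, TGATGNAA, was in 1 member, SEPHS1, beside 3.617% of all promoters. A match describes the letters in a window and not the binding of a factor.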

How the data were processed

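RNA was extracted with Trizol, and poly-A selected libraries of 9 samples were sequenced. Per the submitters' processing notes HISAT2 2.0.5 and featureCounts 1.5.0-p3 were used; the strand setting is not given in the sources used here. The authors deposited unnormalized read counts per gene, and FPKM values made from them. Gene coordinates equalled those of GENCODE release 29 for 58724 of 58735 genes.

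For this work, genes with enough reads (filterByExpr) were scaled by TMM and fitted in edgeR 4.0.16 (R 4.3.3), in 1 quasi-likelihood model of the 9 libraries, and p was adjusted by Benjamini-Hochberg over 16188 genes. Higher and lower mean an adjusted p under 0.05, and 2-fold adds a log2 change of 1 or more in either direction. Errors of log2 values are standard errors, and other errors are SDs. FPKM served for levels between genes and for 1 filter. Alternatives were DESeq2 1.42.0, quantile normalization with limma 3.58.1, every gene with a count, only genes of mean FPKM 5 or more, only the 2 conditions compared, a replicate block, an unadjusted p, and each library left out. The count tests were first tested on simulated data.

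Total counts of 15405102 to 17273464 and a common dispersion of 0.00732 (coefficient of variation 8.56%) set the precision. The floor of 3 counts covers counting error only. The members, their role lists and the further lists were chosen with earlier results of these data known. By rule, each library's value and full statistics were given for GPX4, for members past 2-fold, and for the 3 members of each role with the largest called change in each comparison with vehicle; the values of SEPHS2, SELENOI, PSTK, SECISBP2 and EEFSEC beyond that rule were chosen after they were seen. Of the further lists, genes past 2-fold and the largest called change in each direction were named, and a few others after their values were seen. Codons and overlaps came from GENCODE, and promoters from RefSeq. Python 3.11.15 with matplotlib 3.10.9 made the plots.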

Additional observations from a re-analysis of the deposited data

How the results depend on the processing

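With a mean FPKM of at least 5, which leaves 7454 genes and drops low members, 7 members rose in erastin-R cells and 1 passed 2-fold, and in RSL3-R cells 5 fell and 1 passed 2-fold. With each library left out in turn, 5 to 11 members fell in RSL3-R cells against vehicle and 3 to 5 passed 2-fold, and 1 to 2 passed 2-fold between RSL3-R and erastin-R cells. All other counts of members stayed within 1.5 times the reported ones under the alternatives run. The log2 difference of GPX3 between RSL3-R and vehicle turned to 0.0421 with quantile normalization and 0.0458 with the FPKM filter, and ran from -0.0780 to 0.0732 with a library left out. Between RSL3-R and erastin-R cells that of DIO2 turned to -0.23 with quantile normalization and ran from -0.39 to 1.31, and that of SEPHS1 ran from -0.00365 to 0.0652. None of these 3 differences passed the test in the reported comparison, and the cause was not tested.

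Deviations from the group mean had correlations of -0.0904 to 0.0518 over 9 pairs of libraries with the same replicate number. Pairs with different numbers had -0.088 to 0.123. With 3 libraries in a group, and erastin-R replicate 1 apart from its group, these values cannot decide whether the numbers pair samples. With the replicate block 11 members rose and 6 fell in erastin-R cells, 5 rose and 7 fell in RSL3-R cells, and 3 were higher and 11 lower in RSL3-R than in erastin-R cells. Members with few reads (DIO2, SELENOP, GPX2 and DIO1, at most 18 counts in a library) are limited by depth.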
